A study of Canis lupus familiaris with 4 samples.

Results

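The genes described here make up the folding and quality control machinery of the endoplasmic reticulum (ER): chaperones, disulphide-forming enzymes, the apparatus of ER-associated degradation, 3 stress sensors or transcription factors, and a few genes of translocation and export. The list holds 37 genes. A gene was represented by the array probe sets whose annotation names that gene and no other, and the probe set with the highest mean over the arrays stood for it. By this rule 35 of the 37 genes had a probe set, of 15115 genes in all, and CRELD2 and SERP1 had none. An intensity filter (highest of the 4 values at least 28.64, the median of all values) kept 34 of the 35, of 9757 genes in all. DERL3 was not kept.

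Membrane and secreted proteins enter the ER through a translocon and fold there with the help of Hsp70 and Hsp90 family chaperones, lectin chaperones that bind N-glycans, and oxidoreductases that form and rearrange disulphide bonds. Proteins that fail to fold are passed back through the membrane, ubiquitinated and degraded. When unfolded proteins accumulate, the sensors IRE1 (encoded by ERN1), ATF6 and PERK (encoded by EIF2AK3) start the unfolded protein response, whose transcription factors include XBP1, ATF6 and ATF4. Disulphide formation by ERO1 enzymes passes electrons to molecular oxygen, and ERO1A is a known target of the hypoxia-inducible factors (HIFs).

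The cells were MDCKII, a canine kidney epithelial line. HIF2α-KD cells carried a retroviral shRNA against HIF2α, the protein encoded by EPAS1. The labels call the other cells wild type for HIF2A, and the study's control cells carried a retrovirus with an empty shRNA cassette. All cells were held for 24 h in normoxia and then for a further 24 h in hypoxia (1% oxygen) or in normoxia (16% oxygen). The 4 conditions were HIF2α-KD in hypoxia, control in hypoxia, HIF2α-KD in normoxia and control in normoxia, with 1 Affymetrix 3' array each and no replicates, so that no difference between a pair of arrays has an error. The knockdown stands on a single shRNA line.

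EPAS1 itself had an intensity of 32.6 in hypoxia on the array labelled HIF2α-KD and 116 on the control array, and 47.9 in normoxia on the array labelled HIF2α-KD and 44.6 on the control array. The normoxic pair therefore gives no reading of the knockdown, and the name "labelled HIF2α-KD" is kept for those cells. The oxygen labels were checked with a list of 10 hypoxia-responsive genes, of which 8 were kept and all 8 were called higher in hypoxia by limma. ADM, for example, had 5268 in hypoxia and 436 in normoxia in labelled HIF2α-KD cells, and 9897 and 397 in control cells. NDRG1 and EGLN3 passed the filter only through their hypoxic arrays, so their calls add no check. CA9 and BNIP3 were dim and not kept. In labelled HIF2α-KD cells CA9 had 20.1 in hypoxia and 28.4 in normoxia, and BNIP3 21.0 and 26.7. In control cells CA9 had 20.1 and 26.3, and BNIP3 26.1 and 15.3. Median intensities of the arrays were 28.2 to 29.1. Of the epithelial markers EPCAM, KRT8 and KRT18 were bright, CDH16 lay between 89.1 and 134 and PAX8 was listed at 1.00 on all 4 arrays. CDH1 (E-cadherin) had 81.4 in hypoxia and 18.9 in normoxia in labelled HIF2α-KD cells, and 119 and 15.45 in control cells, the normoxic readings being at background. It was kept only through its hypoxic arrays, so its call by limma is not used. Its part in the results was not tested. The summed markers of leukocytes (103 to 119) and endothelium (109 to 140) stayed low, and COL1A1 and COL3A1 were at background. The fibroblast sum was 89.1 and 161 in hypoxia against 51.6 and 44.0 in normoxia in labelled HIF2α-KD and control cells, PDGFRA being the only kept gene of the 3, and its part in the results was not tested. In RNA from whole cultures, fewer cells that express a gene and less RNA per cell cannot be told apart.

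The members covered a wide range of signal, as the plot of intensities on each array shows. Their probe sets ran from DERL3, at background, to HSPA5 and PDIA6 at the bright end, and 32 of the 35 members were above the 95th percentile of the dim reporter probe sets, a measure of background, on every array. The exceptions were ERO1B, SYVN1 and DERL3. Probe sets differ in how they respond, so levels are compared between arrays for the same gene and not between genes.

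**Figure D1:**
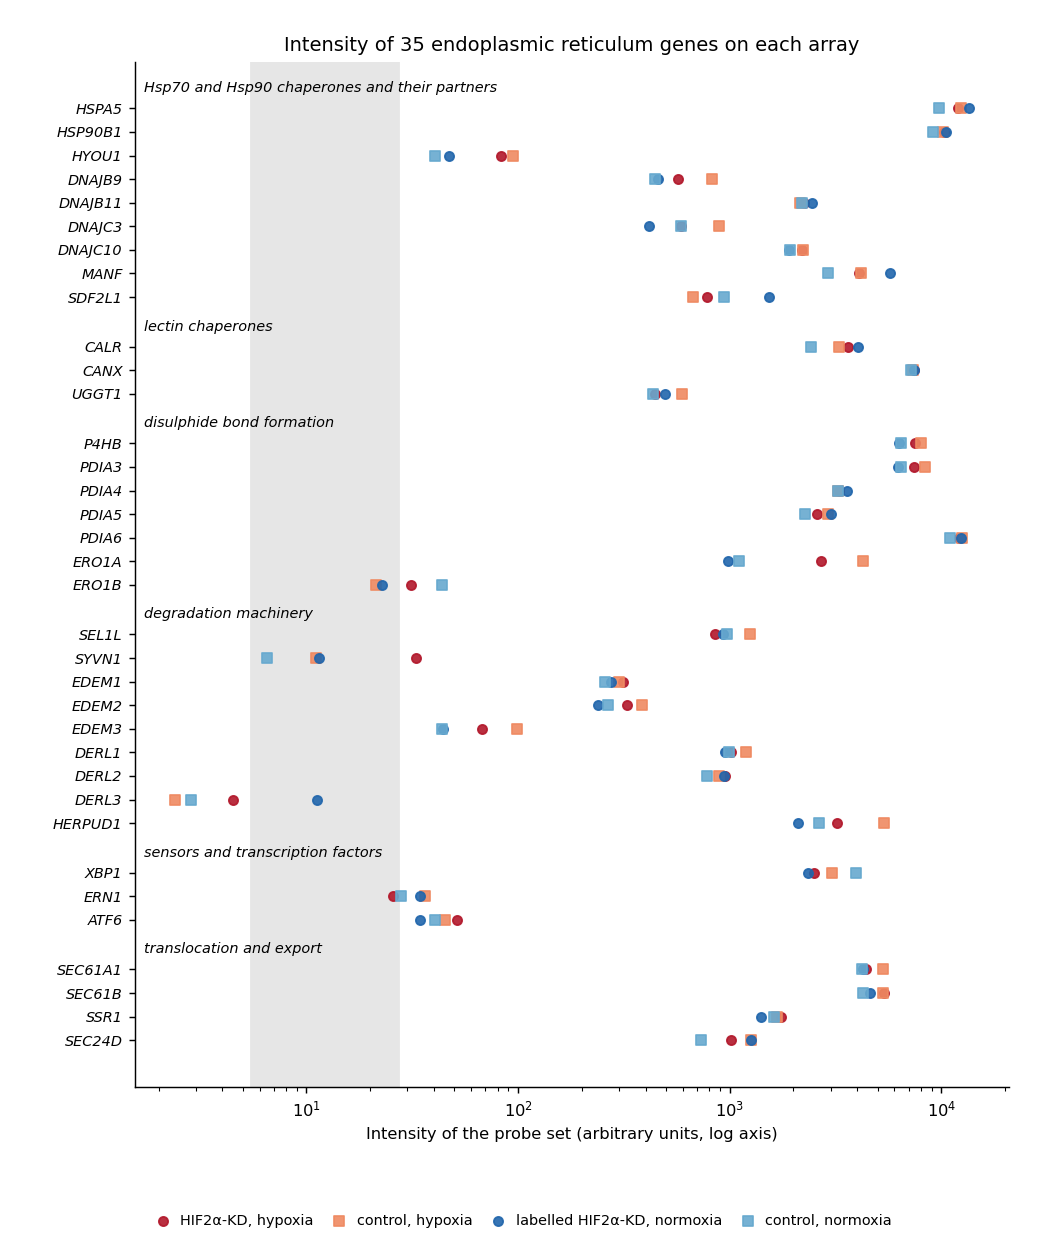
Intensity of the probe set that stands for each of 35 genes (arbitrary units, log axis), with circles for cells labelled HIF2α-KD and squares for control cells, reds for hypoxia and blues for normoxia; the grey band spans the dim reporter probe sets, between 5.48 (the smallest of their medians) and 27.2 (the largest of their 95th percentiles). ERO1A and HERPUD1 have their 2 hypoxic arrays at the right, while MANF, CALR, SDF2L1 and HSPA5 have the array labelled HIF2α-KD in normoxia furthest right.

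The first question was how hypoxia compared with normoxia under each cell label. Differences are given on the scale log2(intensity + 16), on which a difference of 1 is 2-fold and low intensities are compressed. In cells labelled HIF2α-KD, 20 of the 34 kept members (58.8%) were higher in hypoxia, against 53.2% of all kept genes, and the median difference was 0.08, against 0.02 over all kept genes. In control cells 29 of 34 (85.3%) were higher in hypoxia, also against 53.2% of all kept genes, and the median was 0.31, against 0.03. At least 2-fold, 1 member differed in labelled HIF2α-KD cells (ERO1A), where 1.8% of all kept genes did, and 2 in control cells (ERO1A and HERPUD1), where 3.58% did. At least 1.5-fold, 5 members differed in labelled HIF2α-KD cells (4 higher, 1 lower), where 8.16% of all kept genes did (5.47% higher, 2.69% lower). The higher ones include SYVN1, which passed the filter only through its array labelled HIF2α-KD in hypoxia. Without SYVN1, 19 of 33 members were higher in hypoxia in labelled HIF2α-KD cells, with a median of 0.08. In control cells 7 members differed at least 1.5-fold (6 higher, 1 lower), where 14.5% of all kept genes did (10.2% higher, 4.31% lower). The lower member was ERO1B, which in control cells passed the filter only in normoxia. Few members therefore passed either fold under either label, and in control cells most members lay above 0 by small amounts. No test was made of these shares.

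**Figure D2:**
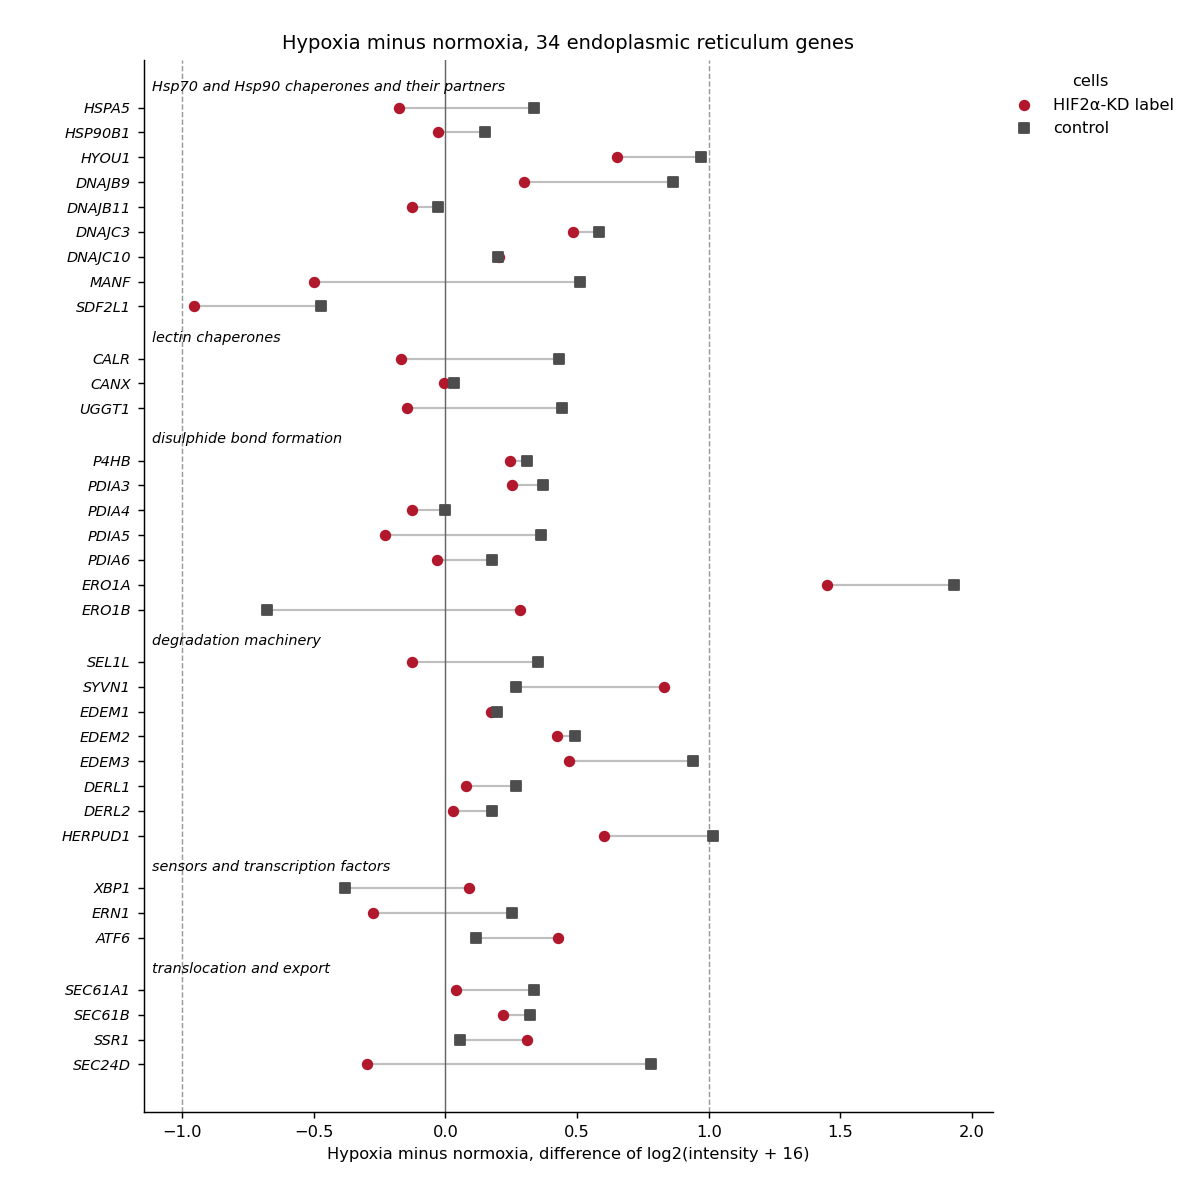
Hypoxia minus normoxia, as a difference of log2(intensity + 16), for 34 genes in cells labelled HIF2α-KD (red circles) and control cells (grey squares), 1 array per condition, with dashed lines at 2-fold. Most squares lie to the right of 0, with ERO1A at 1.45 in labelled HIF2α-KD cells and 1.93 in control cells, and SDF2L1 lies to the left of 0 in both.

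A fit of limma over all 4 arrays, with oxygen and cell label as additive terms and 1 residual degree of freedom, was the only test these arrays allow. Its oxygen term called 280 of 9757 genes (2.87%), 240 higher and 40 lower in hypoxia, and among the members it called 2 of 34, both higher, where 2.46% of all kept genes were called higher. At an unadjusted p under 0.05 it listed 10 members higher and 1 lower (32.4%), against 20.6% of all kept genes. The residual of this fit also holds any difference between the cell labels in their response to oxygen.

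ERO1A, the oxidase that recharges protein disulphide isomerase, had the largest hypoxic difference of the members. Its intensity was 2697 in hypoxia and 978 in normoxia in cells labelled HIF2α-KD, and 4260.02 in hypoxia and 1105 in normoxia in control cells. Both hypoxic arrays were thus above both normoxic ones, by a ratio of 2.76 in labelled HIF2α-KD cells and 3.86 in control cells. ERO1A rose in hypoxia by 1.69 (SE 0.15, limma adjusted p = 0.0050), and it stood at rank 57 of 9757 genes from the top in labelled HIF2α-KD cells and at rank 43 in control cells. It has a single probe set. ERO1B, a second ERO1 oxidase known mainly from pancreas, was dim, with 31.1 in hypoxia and 22.8 in normoxia in labelled HIF2α-KD cells and 21.2 in hypoxia and 43.6 in normoxia in control cells. Its differences were 0.28 and -0.68, and its intensities lay near the reporters' 95th percentiles of 20.6 to 27.2.

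The protein disulphide isomerases, which those oxidases serve, showed small differences at their brightest probe sets. P4HB (the archetypal isomerase) differed by 0.25 in labelled HIF2α-KD cells and 0.31 in control cells at that set, by 0.44 and 0.52 at the next, and by 0.71 and 1.09 at its dimmest. By their brightest sets, PDIA3, the partner of the lectin chaperones, differed by 0.25 and 0.37. PDIA4, PDIA5 and PDIA6 were at -0.13, -0.23 and -0.03 in labelled HIF2α-KD cells and at 0.00, 0.36 and 0.18 in control cells. At the brightest set none of these 5 passed 1.5-fold or was called by limma. The disulphide group as a whole had 4 of 7 members higher in hypoxia in labelled HIF2α-KD cells and 5 of 7 in control cells.

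HERPUD1, a membrane protein that organises the ubiquitin ligase complex of ER-associated degradation, was the other member called. It had 3211 in hypoxia and 2112 in normoxia in cells labelled HIF2α-KD, and 5379 in hypoxia and 2654 in normoxia in control cells. The ratio was 1.52 in labelled HIF2α-KD cells and 2.03 in control cells, and HERPUD1 rose by 0.81 over both (SE 0.13, limma adjusted p = 0.032). Its second probe set gave 0.53 in labelled HIF2α-KD cells and 1.05 in control cells. The call was lost under 3 alternatives of the fit, where the adjusted p reached 0.097.

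The degradation group held 8 kept members, of which 7 were higher in hypoxia in labelled HIF2α-KD cells and 8 in control cells. Over all kept genes 53.2% were higher under either label. The group medians were 0.30 and 0.31. These counts and medians include SYVN1, which was kept only through its array labelled HIF2α-KD in hypoxia. Without SYVN1 the median was 0.17 (the value of EDEM1) in labelled HIF2α-KD cells and 0.35 (that of SEL1L) in control cells. EDEM3, a mannosidase-like protein that marks glycoproteins for disposal, had 67.55 in hypoxia and 44.3 in normoxia in labelled HIF2α-KD cells, and 98.3 in hypoxia and 43.6 in normoxia in control cells. Its difference was 0.47 in labelled HIF2α-KD cells and 0.94 in control cells (limma adjusted p = 0.087), and in control cells lay between 0.59 and 1.16 over the pseudocounts tried. Its relatives EDEM1 and EDEM2 differed by 0.17 and 0.42 in labelled HIF2α-KD cells and by 0.20 and 0.49 in control cells, at the brightest set of each. The other kept sets of EDEM2, both dimmer, gave -0.73 and 0.40 in labelled HIF2α-KD cells. In control cells those sets gave -0.39 and -0.18, so the sign for EDEM2 depended on the probe set. The ligase SYVN1 (HRD1) was above the filter on a single array, with 32.9 in hypoxia and 11.5 in normoxia in labelled HIF2α-KD cells and 11.1 in hypoxia and 6.51 in normoxia in control cells, so its value of 0.83 in labelled HIF2α-KD cells rests on that array and 3 readings at background. SEL1L, the partner of SYVN1, differed by -0.13 in labelled HIF2α-KD cells and 0.35 in control cells. The derlins, channel components of retrotranslocation, differed by 0.08 (DERL1) and 0.03 (DERL2) in labelled HIF2α-KD cells and by 0.27 and 0.18 in control cells. DERL3 gave 4.52 and 11.2 in labelled HIF2α-KD cells in hypoxia and normoxia, and 2.39 and 2.85 in control cells, all at background, and no difference is given for it.

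Of the 9 kept Hsp70 and Hsp90 chaperones and their partners, 4 were higher in hypoxia in labelled HIF2α-KD cells and 7 in control cells. HSPA5 (BiP), the ER Hsp70 and the usual readout of the unfolded protein response, had 11956 in hypoxia and 13512 in normoxia in cells labelled HIF2α-KD, and 12343 in hypoxia and 9771 in normoxia in control cells. Its difference was -0.18 in labelled HIF2α-KD cells and 0.34 in control cells. HSP90B1 (GRP94), the ER Hsp90, had 10259 in hypoxia and 10464 in normoxia in labelled HIF2α-KD cells, and 10119 in hypoxia and 9110.1 in normoxia in control cells. Neither approached 1.5-fold in either comparison.

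HYOU1, an Hsp70-related nucleotide exchange factor for BiP named for its induction by low oxygen, was dim and higher in hypoxia under both labels. It had 83.35 in hypoxia and 47.3 in normoxia in labelled HIF2α-KD cells, and 94.75 in hypoxia and 40.5 in normoxia in control cells. The differences were 0.65 and 0.97, and the additive fit put it just outside the threshold (0.81, SE 0.16, limma adjusted p = 0.054). Its second probe set gave 0.38 in labelled HIF2α-KD cells and 0.66 in control cells. At this low intensity the value depended on the pseudocount, and in control cells it lay between 0.60 and 1.21 over the alternatives.

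DNAJB9 (ERdj4), a J-domain co-chaperone of BiP, had 567 in hypoxia and 457 in normoxia in cells labelled HIF2α-KD, and 823 in hypoxia and 445 in normoxia in control cells. Its difference was 0.30 in labelled HIF2α-KD cells and 0.86 in control cells, and limma did not call it (adjusted p = 0.14). DNAJC3 (p58IPK), a co-chaperone known as an inhibitor of PERK, is named here after its values were seen. At its brightest probe set it lay just inside the 1.5-fold bound. That set had 589.9 in hypoxia and 417 in normoxia in labelled HIF2α-KD cells, and 886 in hypoxia and 586 in normoxia in control cells. The differences were 0.49 and 0.58 (limma adjusted p = 0.10). Its other kept sets gave 0.61 and 0.75 in labelled HIF2α-KD cells and 0.95 and 0.31 in control cells. The other J-domain proteins DNAJB11 and DNAJC10, of which DNAJC10 is also a disulphide reductase, differed by at most 0.20 in size under either label.

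SDF2L1, found in a complex with BiP and J-domain proteins, was lower in hypoxia under both labels. It had 781 in hypoxia and 1529.7 in normoxia in cells labelled HIF2α-KD, and 670.55 in hypoxia and 935 in normoxia in control cells. Both hypoxic arrays were below both normoxic ones, with differences of -0.96 in labelled HIF2α-KD cells and -0.47 in control cells (limma -0.71, SE 0.16, adjusted p = 0.074). All 3 of its probe sets gave the same direction in both.

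MANF, a small secreted protein retained in the ER by binding to BiP, had 4059.55 in hypoxia and 5739 in normoxia in labelled HIF2α-KD cells, and 4161 in hypoxia and 2914 in normoxia in control cells. The hypoxic difference was -0.50 in labelled HIF2α-KD cells and 0.51 in control cells. The 2 hypoxic arrays were close to each other and the normoxic arrays lay on either side of them.

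At their brightest probe sets the 3 lectin chaperones had hypoxic differences below 0 in labelled HIF2α-KD cells and above 0 in control cells, but in labelled HIF2α-KD cells all 3 had other probe sets above 0. CALR (calreticulin), the soluble lectin, had 3600.05 in hypoxia and 4052 in normoxia in labelled HIF2α-KD cells, and 3285 in hypoxia and 2432 in normoxia in control cells, with differences of -0.17 and 0.43. Its membrane-bound counterpart CANX (calnexin) differed by -0.0045 and 0.03, and its other 3 sets gave 0.10, 0.44 and 0.49 in labelled HIF2α-KD cells and 0.19, 0.73 and 0.95 in control cells. UGGT1, the glucosyltransferase that returns unfolded glycoproteins to the cycle, differed by -0.15 and 0.44, and by 0.09 and 0.93 at its other set. The dimmest of the 4 probe sets of CALR gave 1.53 in labelled HIF2α-KD cells and 1.34 in control cells, unlike the other 3.

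Of the sensors and transcription factors, none differed 1.5-fold between oxygen levels. ATF6, which is cut in the Golgi to release an active factor, had 51.6 in hypoxia and 34.2 in normoxia in labelled HIF2α-KD cells, and 45.2 in hypoxia and 40.5 in normoxia in control cells. ERN1, which encodes the IRE1 kinase and ribonuclease, had 25.7 and 34.5 in hypoxia and normoxia in labelled HIF2α-KD cells, and 36.3 and 27.85 in control cells, close to background. XBP1 had 2491 in hypoxia and 2339 in normoxia in labelled HIF2α-KD cells, and 3038 in hypoxia and 3959.5 in normoxia in control cells, differences of 0.09 and -0.38. Its second probe set gave -0.0081 and -0.07. A probe set does not tell the unspliced XBP1 transcript from the form spliced by IRE1, so these values say nothing of its activation.

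In the translocation and export group, SEC24D, a cargo-binding subunit of the COPII coat, had 1017 in hypoxia and 1253 in normoxia in cells labelled HIF2α-KD, and 1265 in hypoxia and 729 in normoxia in control cells. Its difference was -0.30 in labelled HIF2α-KD cells and 0.78 in control cells. A second set gave -0.27 and 0.74, and a dim set gave 2.01 and 0.97, of the opposite sign in labelled HIF2α-KD cells. The translocon subunits SEC61A1 and SEC61B and the translocon-associated SSR1 differed by 0.04, 0.22 and 0.31 in labelled HIF2α-KD cells and by 0.34, 0.32 and 0.05 in control cells, without a call.

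The second question was how cells labelled HIF2α-KD compared with control cells at each oxygen level. In hypoxia 13 of 34 members (38.2%) were higher in labelled HIF2α-KD cells, against 44.3% of all kept genes, with a median of -0.07, against -0.04. In normoxia 21 of 34 (61.8%) were higher, against 43.5% of all kept genes, with a median of 0.06, against -0.04. No member differed 2-fold at either level, where 0.974% of all kept genes did in hypoxia and 1.16% in normoxia. At least 1.5-fold, 3 members differed in hypoxia, 1 higher and 2 lower, where 6.54% of all kept genes did (1.62% higher, 4.92% lower). In normoxia 6 members differed at least 1.5-fold, 4 higher and 2 lower, where 6% of all kept genes did (2.45% higher, 3.55% lower). No test was made of these shares either. In hypoxia the member counted as higher in labelled HIF2α-KD cells was SYVN1, which passed the filter only through the array where it was high. Without it 12 of 33 members were higher in labelled HIF2α-KD cells than in control cells in hypoxia, with a median of -0.10. The cell label term of limma called no gene (0% of 9757, smallest adjusted p 0.057). At an unadjusted p under 0.05 it listed 2 members higher and 4 lower, against 9.62% of all kept genes, with HERPUD1 having the smallest adjusted p of the members (-0.53, SE 0.13, adjusted p = 0.26).

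**Figure D3:**
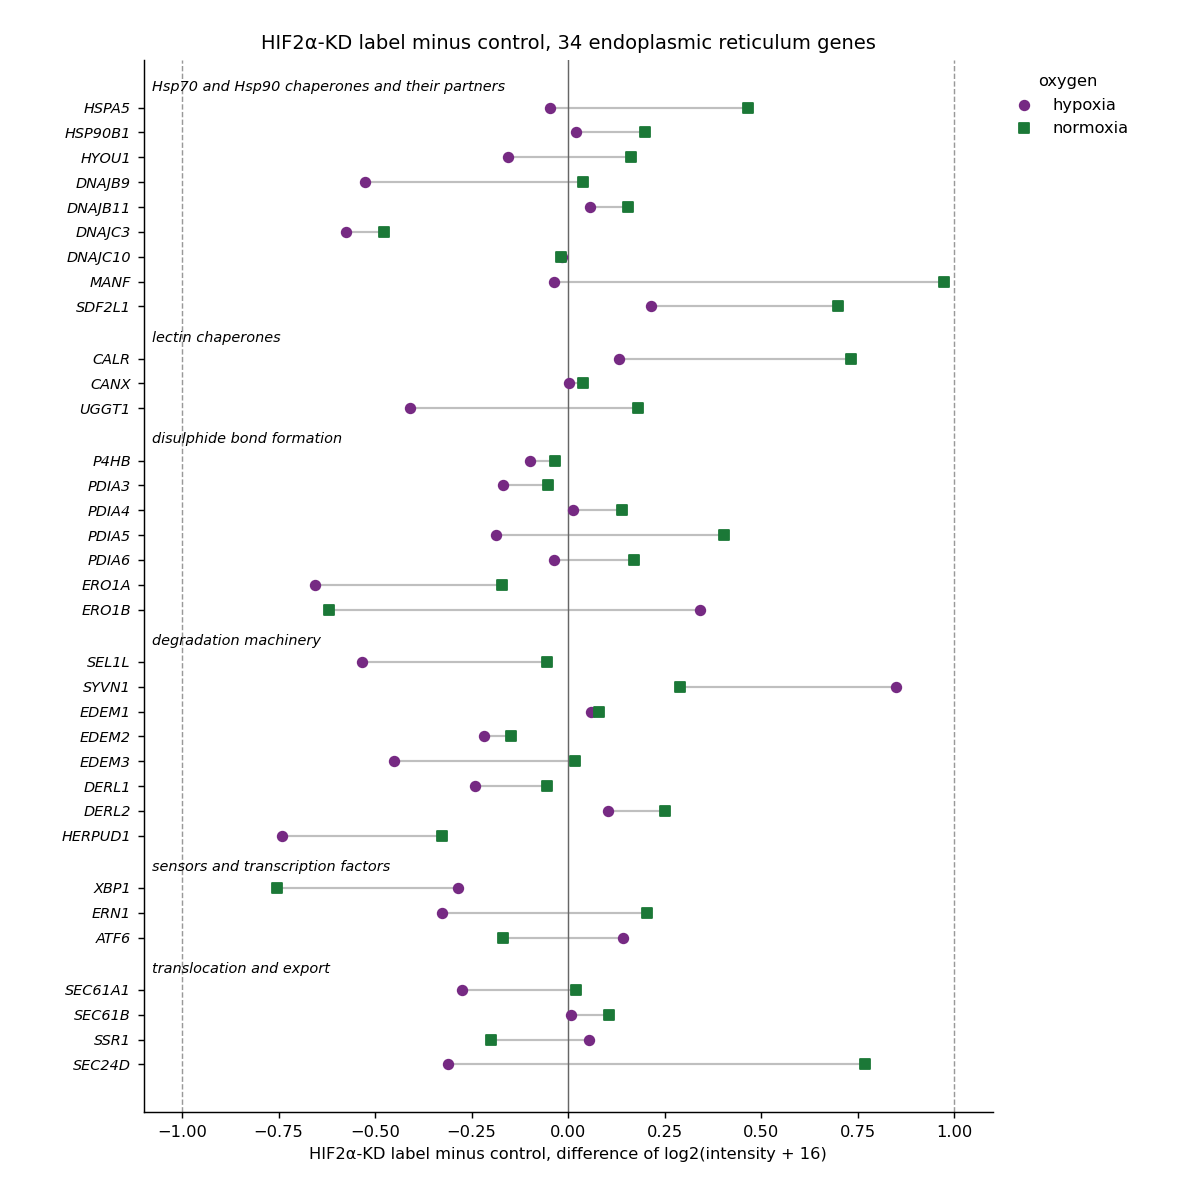
Cells labelled HIF2α-KD minus control cells, as a difference of log2(intensity + 16), for 34 genes in hypoxia (purple circles) and normoxia (green squares), 1 array per condition, with dashed lines at 2-fold. No point passes 2-fold, and MANF in normoxia comes nearest to it at 0.97.

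In hypoxia the 3 members past 1.5-fold were HERPUD1 (-0.74) and ERO1A (-0.66), both lower in labelled HIF2α-KD cells, and the dim SYVN1 (0.85). HERPUD1 and ERO1A were the members with the highest hypoxic values in control cells, and the control hypoxia array enters both comparisons. DNAJC3 followed at -0.57, SEL1L at -0.53 and DNAJB9 at -0.53. In normoxia HERPUD1 was at -0.33, DNAJC3 at -0.48 and ERO1A at -0.17, so that all 3 were lower on both arrays labelled HIF2α-KD, by amounts that limma did not call. The other kept sets of DNAJC3 gave -0.15 and -0.85 in normoxia.

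In normoxia the 4 members at least 1.5-fold higher in labelled HIF2α-KD cells were MANF (0.97), SEC24D (0.77), CALR (0.73) and SDF2L1 (0.70), and HSPA5 was at 0.47. In hypoxia the same 5 were at -0.04, -0.31, 0.13, 0.22 and -0.05. The 2 members at least 1.5-fold lower were XBP1 (-0.76, with -0.35 at its second probe set) and ERO1B (-0.62), and in hypoxia they stood at -0.28 and 0.34. Of the normoxic pair, ERO1B passed the filter only on the control array, where it was high. The second probe set gave 0.88 for MANF, 0.75 for SEC24D and 0.59 for HSPA5. A dim set of SEC24D was at -0.34, and the mean of its sets was 0.38, below 1.5-fold. For CALR, 3 of its 4 probe sets lay between 0.69 and 0.73, and the dimmest was at -0.29.

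The comparison of hypoxia in control cells and the comparison of cell labels in normoxia share the control normoxia array. That array was the lowest of the 4 for 17 of 34 members (50%), against 23.0% of all kept genes, and the highest for 2 (XBP1 and the dim ERO1B), against 26%. The control hypoxia array was the highest for 17 members (50%), against 35.1% of all kept genes. The 17 include ERN1, whose signal was close to background. With other scaling this count fell, to 14 with quantile or cyclic loess scaling and 15 with median centring. In labelled HIF2α-KD cells the hypoxic array was the highest for 6 members, and for 10 with cyclic loess scaling. Members lowest on the control normoxia array numbered 17 with quantile scaling or median centring and 19 with cyclic loess. The array labelled HIF2α-KD in normoxia was the highest for 9 members (26.5%), against 21.2% of all kept genes. These were HSPA5, HSP90B1, CALR, CANX, MANF, SDF2L1, DNAJB11, PDIA4 and PDIA5. The same array was the lowest for 11 (32.4%), against 30.7% of all kept genes, among them ERO1A, HERPUD1, DNAJC3 and XBP1. Both shares lay near those of all kept genes. Without replicates, an array that reads high or low as a whole for these genes and a response of the cells cannot be told apart.

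**Figure D4:**
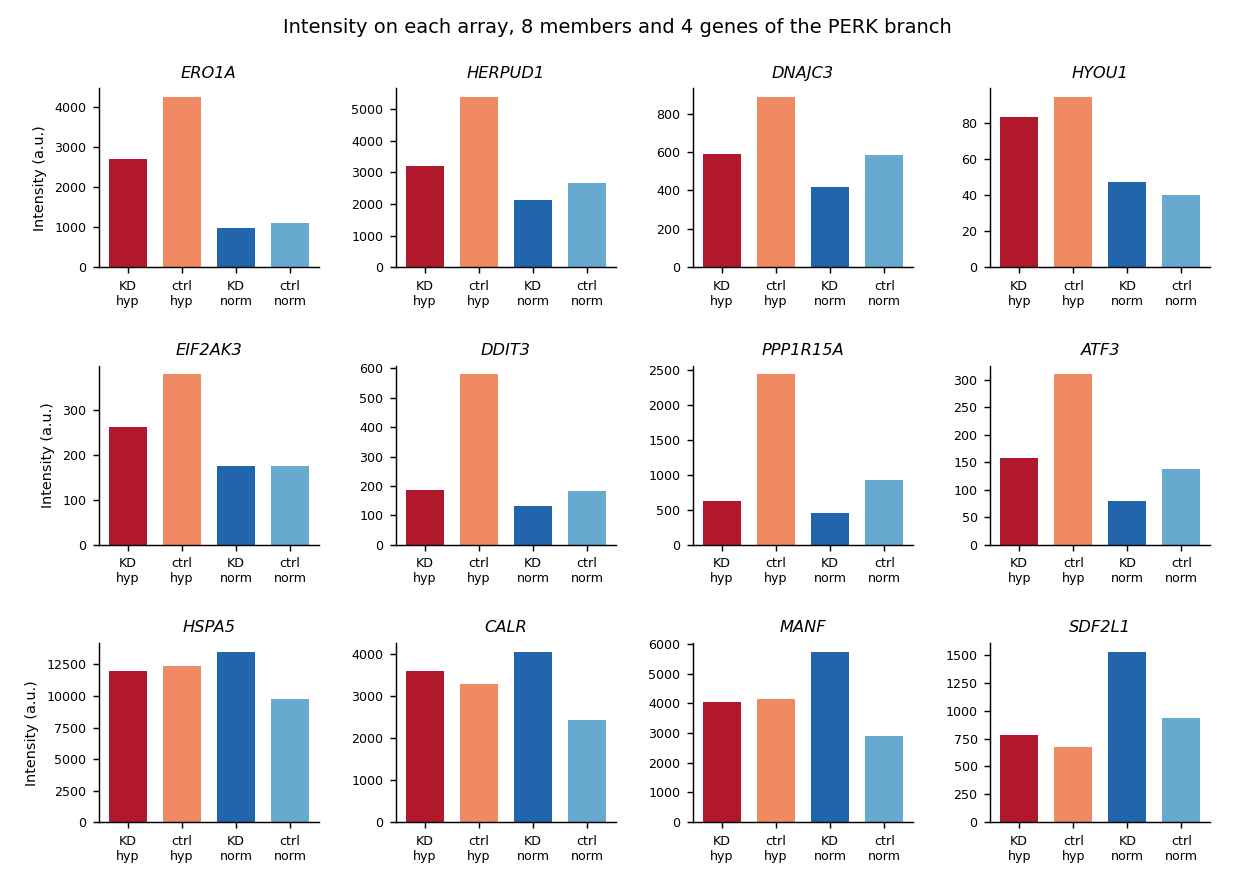
Intensity (arbitrary units, linear axes from 0) on each array for 8 members of the list and 4 genes of the PERK branch; KD and ctrl stand for cells labelled HIF2α-KD and control cells, hyp and norm for hypoxia and normoxia. In the upper rows control hypoxia is the tallest bar for ERO1A, HERPUD1, DNAJC3, HYOU1 and the 4 PERK branch genes, which were picked for their large differences. In the bottom row the array labelled HIF2α-KD in normoxia is the tallest for HSPA5, CALR, MANF and SDF2L1.

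The signed hypoxic difference in labelled HIF2α-KD cells minus that in control cells was below 0 for 28 of 34 members (82.4%), against 50.4% of all kept genes. The median of this difference of differences was -0.18, against -0.0024 over all kept genes. It passed 2-fold in size for 2 members, SEC24D (-1.08) and MANF (-1.01), where 2.55% of all kept genes did, and it was highest for ERO1B (0.96). ERO1B passed the filter only on the arrays labelled HIF2α-KD in hypoxia and control in normoxia. Those arrays raise this value, so it is not read further. With the mean of all probe sets of a gene the value for SEC24D was -0.25 and that for MANF -0.98. It uses all 4 arrays once each, has no error and was not tested.

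Several probe sets of the same gene read the same RNA on the same array, and their spread shows how far the value of a gene depends on the probes. Of the 34 members, 24 had more than 1 kept probe set, 64 in all. The pooled SD of the difference among probe sets of a member was 0.42 for hypoxia in labelled HIF2α-KD cells, 0.27 for hypoxia in control cells, 0.24 for the cell label in hypoxia and 0.25 for the cell label in normoxia. All probe sets of a member had the same sign in 14, 20, 15 and 15 of the 24 members in these comparisons. For hypoxia in control cells the 4 whose sets differed in sign were DERL1, EDEM2, PDIA3 and PDIA4. This spread is of the size of most differences given above, and it does not include the spread between cultures.

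**Figure D5:**
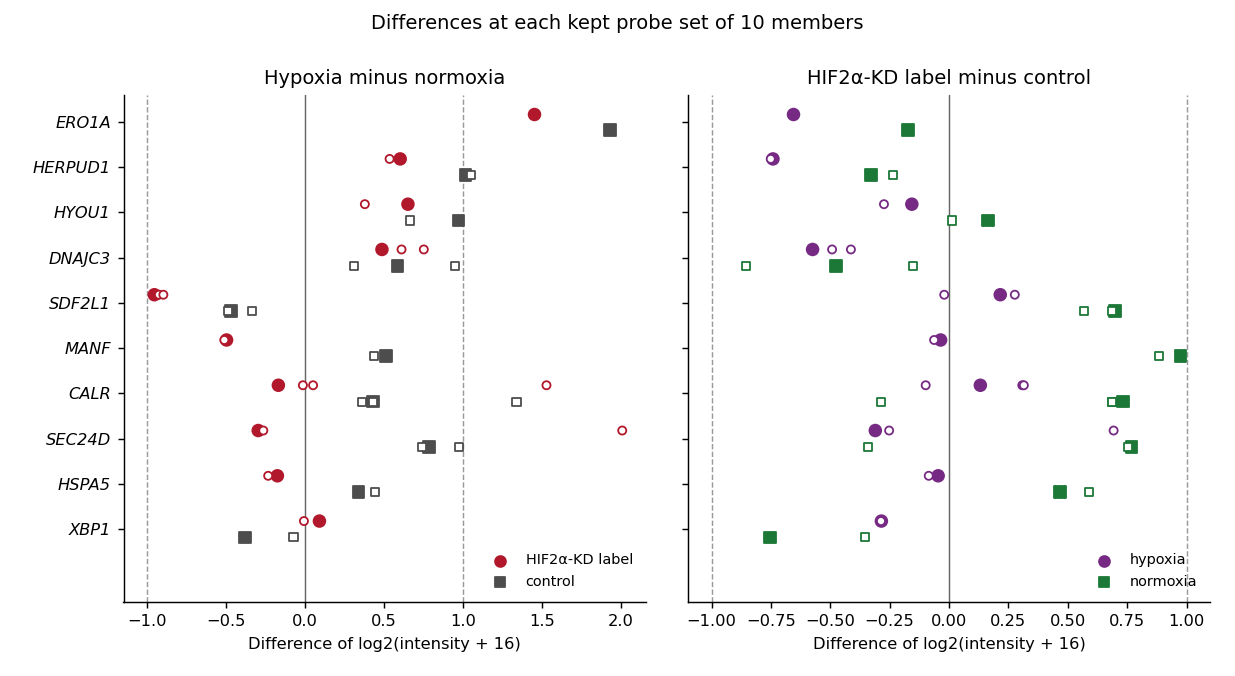
Differences of log2(intensity + 16) at every kept probe set of 10 members, hypoxia minus normoxia on the left and cells labelled HIF2α-KD minus control cells on the right, with the brightest probe set of each gene as a filled symbol and the others open. The probe sets of HERPUD1, MANF and SDF2L1 lie close together, while a dim set of CALR (1.53 and 1.34 for hypoxia) and a dim set of SEC24D (2.01 in labelled HIF2α-KD cells) lie apart.

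Neighbouring gene lists of the same organelle were read in the same way. Of the list for signalling and the PERK branch (12 of 14 genes kept), 0 genes were 2-fold higher in hypoxia in labelled HIF2α-KD cells and 4 in control cells, where 1.8% and 3.58% of all kept genes were 2-fold different in either direction. By sign, 11 of the 12 were higher in hypoxia in labelled HIF2α-KD cells and 8 in control cells, against 53.2% of all kept genes under either label. The medians were 0.32 and 0.20, and ATF4 differed by 0.57 and 0.20. The differences between the labels in these values were not tested. In the order labelled HIF2α-KD then control cells, DDIT3 (CHOP), a transcription factor of prolonged stress, had 185 and 580 in hypoxia and 131 and 184 in normoxia. PPP1R15A (GADD34), which directs dephosphorylation of eIF2α, had 621 and 2432 in hypoxia and 460 and 922 in normoxia. ATF3, a stress-induced transcription factor, had 158 and 310 in hypoxia and 79.9 and 137 in normoxia, and was the list's only oxygen call by limma (0.97, SE 0.14, adjusted p = 0.023). EIF2AK3 had 263 and 380 in hypoxia and 174 and 175 in normoxia. For all 4 the control hypoxia array was the highest, but they were picked from the list for their large differences and do not stand for it. In labelled HIF2α-KD and control cells, TRIB3 differed by 0.07 and 0.17 for hypoxia, ATF6B by 0.08 and -0.46 and RTCB by -0.32 and -0.64. In hypoxia PPP1R15A and DDIT3 were lower in labelled HIF2α-KD cells, with differences of -1.94 and -1.57, and in normoxia PPP1R15A, ATF4 and ATF3 stood at -0.98, -0.77 and -0.68. Limma called none of them for the cell label.

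Among 23 genes of the translocon and of glycan transfer, all kept, 0 passed 1.5-fold in any of the 4 comparisons, and their medians lay between -0.06 and 0.03. Of 19 kept further folding enzymes, 1 was counted as 2-fold higher in hypoxia in control cells. It was QSOX1, a sulphydryl oxidase kept only through its hypoxic arrays, with 27.5 in hypoxia and 10.6 in normoxia in labelled HIF2α-KD cells and 38.7 and 8.72 in control cells, the normoxic readings being at background. Of 20 kept further genes of degradation, FAF2, which recruits the p97 ATPase, had 181 in hypoxia and 89.4 in normoxia in labelled HIF2α-KD cells and 214 and 90.5 in control cells, and rose in hypoxia (1.01, SE 0.14, limma adjusted p = 0.021). RNF185, a ubiquitin ligase, had 35.4 in hypoxia and 43.1 in normoxia in labelled HIF2α-KD cells and 13.9 and 51.2 in control cells, where the hypoxic reading was at background. A COPII list also held cargo receptors and the KDEL receptors, which are not parts of the coat. Of its 16 kept genes, 10 were higher in hypoxia in labelled HIF2α-KD cells and 15 in control cells, against 53.2% of all kept genes under either label. The medians were 0.07 and 0.19, so this list too lay mostly above 0 in control cells. SEC24C was at 0.80 for hypoxia in control cells, SEC24A at -0.63 for the cell label in hypoxia and KDELR3 at 0.59 for the cell label in normoxia, and none of the list passed 2-fold.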

How the data were processed

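The deposited table holds linear intensities of Affymetrix canine probe sets, made by the authors, 1 value for each array. How they corrected background and scaled the arrays is not given in the sources used. Precision is limited by there being 4 arrays. Of 42924 probe sets, 29254 carry 1 gene symbol. Differences were taken on log2(intensity + 16). Pairs of arrays were counted at 2-fold and 1.5-fold with no test. limma 3.58.1 (R 4.3.3) fitted oxygen and cell label with a trended prior and Benjamini-Hochberg adjustment at 0.05 over 9757 genes, and was tested on simulated data. Figures were drawn with matplotlib 3.10.9. Alternatives were quantile, cyclic loess and median scaling, other filters and pseudocounts, the mean of probe sets, and limma with a constant or a robust prior. The members and lists were chosen with earlier results of these data known. Values on every array are given for members past 1.5-fold in any comparison or called, and for HSPA5, HSP90B1, XBP1, ERN1, ATF6 and ERO1A.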

Additional observations from a re-analysis of the deposited data

Results flagged for a closer look

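MANF and SEC24D had hypoxic differences of opposite sign under the 2 cell labels. For MANF the hypoxic difference was -0.50 in labelled HIF2α-KD cells and 0.51 in control cells, a difference of -1.01. For SEC24D it was -0.30 in labelled HIF2α-KD cells and 0.78 in control cells, a difference of -1.08. With 1 array per condition neither difference was tested. With the mean of the probe sets of each gene the difference was -0.98 for MANF and -0.25 for SEC24D, the dimmest probe set of SEC24D having read higher in hypoxia in both.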

How the results depend on the processing

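No called value changed direction under the alternatives run, and near 0 the uncalled oxygen term of MANF and label term of HYOU1 took either sign. Members at least 2-fold different between oxygen levels in labelled HIF2α-KD cells numbered 1, and 2 with a pseudocount of 1. In control cells they numbered 2, 1 with quantile scaling or median centring, and 5 with a pseudocount of 1. Between cell labels they numbered 0 in hypoxia, 1 with a pseudocount of 1 (SYVN1), and 0 in normoxia, 1 with quantile or cyclic loess scaling (MANF). At 1.5-fold the 4 counts were 5, 7, 3 and 6. limma's oxygen term called 2 members, 4 with quantile scaling, median centring or robust moderation (HYOU1 and SDF2L1 added), 3 with a pseudocount of 1 (HYOU1 added), and 1 (ERO1A) without the filter, with the mean of probe sets or without the trend. ERO1A kept its call throughout (adjusted p 0.00042 to 0.027), and HERPUD1 ranged over 0.0090 to 0.097. The cell label term called no member under any alternative. Of the values of single members, 19 differences of a pair of arrays moved by more than limma's residual SD of the gene, mostly with the pseudocount at dim ERO1B, SYVN1, HYOU1 and EDEM3 or with the mean of probe sets. The signed hypoxic difference in labelled HIF2α-KD cells minus that in control cells was below 0 for 26 to 28 of the 34 members over the settings run.

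Over all kept genes the oxygen term called 280, against 484, 435 and 460 with quantile scaling, median centring and robust moderation, 163 with cyclic loess, and 70, 104 and 101 without the filter, with probe set means and without the trend. Of the calls 85.7% were higher in hypoxia, 67.4% with quantile scaling and 75.6% with median centring. The cell label term called 0 genes, and at most 21 (robust moderation). A pseudocount of 1 raised the 2-fold counts over all genes to 335 for hypoxia in labelled HIF2α-KD cells (176), 595 for hypoxia in control cells (349), 225 for the label in hypoxia (95) and 235 in normoxia (113), and a pseudocount of 64 gave 98, 193, 37 and 65.

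No paired analysis was possible because each group has 1 array and the groups share only 1 replicate number, while the additive fit already compares oxygen levels within each cell label. Medians of the members ranged over 0.04 to 0.13 and 0.26 to 0.34 for hypoxia in labelled HIF2α-KD and control cells, and over -0.07 to -0.01 and 0.05 to 0.12 for the label in hypoxia and normoxia. Signal near background limits ERO1B, SYVN1, ERN1 and DERL3.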
